A study of Mus musculus with 9 samples.

Results

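The genes described here are 10 transcripts of the oxygen-sensing pathway in the mouse heart after ischemia and reperfusion (I/R): the 3 alpha subunits of the hypoxia-inducible factors (Hif1a, Epas1 and Hif3a), the 3 prolyl hydroxylases that read oxygen (Egln1, Egln2 and Egln3) and 4 target genes (Ndrg1, Higd1a, Ankrd37 and Ddit4). They were picked by symbol from the 38293 genes of the count table, through their Ensembl gene IDs in the GENCODE annotation of GRCm38, and all 10 were found and passed the filter on low counts. The samples were left ventricle of 9 male C57BL/6 mice aged 8 weeks, with no transgene or drug named in the labels. In both I/R groups the left anterior descending coronary artery was tied for 1 hour and then released, and tissue was taken 1 day later (mice 4, 5 and 6) or 14 days later (3 mice). Mice 1, 2 and 3 had sham surgery, and the labels do not give the time at which their tissue was taken. The 3 count columns of the 14-day group carry 1 shared name, so those libraries go here by the letters A, B and C, which carry no order. Nothing in the labels names a batch. The p-values of single genes set a group difference against the spread between mice, estimated in the main fit from all 9 libraries.

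Hypoxia-inducible factors are transcription factors made of an oxygen-controlled alpha subunit and a stable beta subunit, ARNT. When oxygen is present, the EGLN enzymes hydroxylate prolines of the alpha subunit, the VHL ubiquitin ligase binds it and it is degraded, so the factor's activity is set largely at the protein and is not read by a transcript count. Low oxygen slows the hydroxylases, and the stabilised factor binds a short DNA core, the hypoxia response element, near genes for glycolysis, vessel growth, mitochondrial turnover and, as feedback, Egln3 and Egln1 themselves.

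The positions in GRCm38 were chr12:73901375-73947530 for Hif1a, chr17:86753700-86833410 for Epas1 and chr7:17031507-17062427 for Hif3a. The hydroxylase genes lie at chr8:124908587-124949324 (Egln1), chr7:27158658-27166802 (Egln2) and chr12:54178981-54203860 (Egln3). Among the targets, Ndrg1 lies at chr15:66929318-66969640, Higd1a at chr9:121848563-121858362, Ankrd37 at chr8:45996902-46005707 and Ddit4 at chr10:59949669-59951834. Hif1a and Epas1 are on the + strand and the other genes on the - strand. Other annotated genes share 26.4% of the exonic bases of Ankrd37, 22.5% of those of Higd1a, 8.43% of those of Ndrg1 and 8.11% of those of Hif1a. Genes on the same strand share 2.51% for Hif1a and 0% for Ankrd37, Higd1a and Ndrg1. How far this touches their counts is not known, because the strand setting of the counting is not given. In Higd1a, 43.5% of the longest transcript also matched Gm47112 or Gm9790 at 95% identity or more.

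Promoter windows of 250 bases before the RefSeq start (GRCm38.p6) were read for 8 of the 10 genes and searched on both strands for the hypoxia response element cores ACGTG and GCGTG. All 9 windows (Egln2 has 2 starts) held a core, as did 38.6% of all 32851 windows of that length. Taken singly, 16.6% of all windows held ACGTG, 28.2% held GCGTG and 6.02% held CACGTG, in which ACGTG is read on both strands at once. GC content ran from 48% to 86% over the 9 windows, and a match is a description of the letters, not of binding. Shown are 3 windows that touch no annotated exon: Hif1a, an alpha subunit higher at both times, and Egln2 and Egln3, hydroxylases of the same family that went opposite ways at 1 day. Each reads 5′ to 3′ on the gene's own strand, ends at the base before the start, and has the cores in capitals.
Hif1a, chr12:73907617-73907866, + strand: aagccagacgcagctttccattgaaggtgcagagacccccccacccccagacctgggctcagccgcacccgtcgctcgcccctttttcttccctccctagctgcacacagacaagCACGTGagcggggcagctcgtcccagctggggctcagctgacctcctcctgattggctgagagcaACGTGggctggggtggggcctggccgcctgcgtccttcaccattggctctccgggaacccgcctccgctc
Egln2, chr7:27166803-27167052, - strand: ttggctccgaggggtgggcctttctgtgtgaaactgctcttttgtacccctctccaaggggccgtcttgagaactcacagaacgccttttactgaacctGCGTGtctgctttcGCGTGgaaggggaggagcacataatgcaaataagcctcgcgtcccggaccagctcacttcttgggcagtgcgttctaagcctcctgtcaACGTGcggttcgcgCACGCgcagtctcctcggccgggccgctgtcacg
Egln3, chr12:54203875-54204124, - strand: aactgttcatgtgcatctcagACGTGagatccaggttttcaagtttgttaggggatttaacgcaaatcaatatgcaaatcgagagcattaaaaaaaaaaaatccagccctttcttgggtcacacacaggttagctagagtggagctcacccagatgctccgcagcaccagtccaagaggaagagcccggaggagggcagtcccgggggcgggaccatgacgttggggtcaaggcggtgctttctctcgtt
The Hif1a window lies within the bounds of the GENCODE gene, outside its annotated exons. In it the palindrome CACGTG gives 2 overlapping ACGTG matches, at -134 to -130 and at -135 to -131 from the start, and another lies at -70 to -66. Egln2 had 4 matches, with ACGTG at -48 to -44. Egln3 had 1 match, ACGTG at -229 to -225.

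Library totals ran from 20215781 to 36816818 counts, and from 7217019 to 15969149 without ribosomal RNA genes. The 10 genes together had 7057 to 13837 counts per library. Mitochondrially encoded genes took 65 to 71.8% of the counts in sham, 52 to 63.3% at 1 day and 65 to 68.8% at 14 days. Levels below are CPM, a gene's count divided by the library's TMM-scaled total in units of 1000000 counts (edgeR's trimmed mean, which sets the bulk of genes level between libraries). Where total count alone was used for scaling, the log2 fold of the median gene moved by 0.48 at 1 day against sham, by 0.09 at 14 days against sham and by -0.39 at 14 days against 1 day, and values under that scaling are to be read against these shifts. Scaling to the nuclear total without ribosomal RNA moved it by 0.14, 0.09 and -0.05. The 10 cardiomyocyte markers were detected in every library, summing to at least 34640 CPM.

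At 1 day after I/R, Hif1a and Egln2 were higher than in sham, and Epas1, Egln1, Egln3 and Higd1a were lower, the last 3 with log2 folds of -1.32, -1.01 and -1.18. Called means an adjusted p under 0.05 in edgeR's quasi-likelihood test. By that rule 6 of the 10 genes were called, or 60%, against 54.2% of the 14124 genes tested, so the number called was close to that of genes in general. Of all genes tested 29.4% were called higher and 24.8% lower, against 2 and 4 of the 10 genes. The sham and 1-day libraries did not overlap for 7 of the 10 genes and for 63.2% of all genes. Their median log2 fold was -0.46, beside 0.04 over all genes tested. With total count alone 3 of the 10 genes were called higher and 3 lower, with a median of 0.02, and the calls over all genes split into 6859 higher and 1058 lower, beside 4153 and 3496 with TMM scaling. With the nuclear total that split was 5057 and 2683.

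By 14 days Hif1a and Ndrg1 were higher than in sham, by 42.4% and 36%, while Egln2 fell by 33% and Higd1a fell by 25.8%. These 4 of 10 genes stood beside 14.4% of all genes tested, of which 8.75% were called higher and 5.64% lower. The libraries did not overlap for 8 of the 10 genes and for 39.4% of all genes, and the median log2 fold was -0.41 beside 0.01 over all genes. Counts of calls at this time moved with the libraries used, for the 10 genes and for genes in general. Without sham 2 or without C none of the 10 genes was called by edgeR (5 and 4 of them had an unadjusted p under 0.05), beside 3.31% and 5.3% of all genes in the same fits. Without sham 3 or without B 1 was called (6.98% and 5.01% of all genes), and without sham 1 there were 2 (6.25%). Without A 6 were called (20.9%). Leaving out a 1-day library, which enters the shared estimate of spread, gave 4 without mouse 4 (13.9%), 4 without mouse 5 (12.8%) and 7 without mouse 6 (22%). Over these 9 fits the log2 fold ran from 0.41 to 0.60 for Hif1a, from 0.38 to 0.49 for Ndrg1, from -0.74 to -0.45 for Egln2 and from -0.51 to -0.37 for Higd1a, so their directions held where calls were lost. DESeq2 and limma-voom, run on all 9 libraries, called 4 each. With total count alone none was called (3 at an unadjusted p under 0.05), and the split over all genes was 720 higher and 112 lower, beside 1236 and 797 with TMM scaling and 1452 and 476 with the nuclear total.

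Between both times, Egln1, Egln3, Ndrg1 and Higd1a were higher at 14 days than at 1 day and Egln2 was lower. These 5 of 10 genes compare with 51.9% of all genes tested, 25.1% higher and 26.8% lower. No overlap between the libraries was seen for 4 of the 10 genes and for 56.3% of all genes. The median log2 fold of the 10 genes was 0.31, beside 0 over all genes. Both comparisons with sham use the same 3 sham libraries, and the comparison of both times uses the I/R libraries of the other two. Total count scaling called 2 of the 10 genes, 1 in each direction, and split all calls into 1067 higher and 5469 lower, beside 3547 and 3788.

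**Figure D1:**
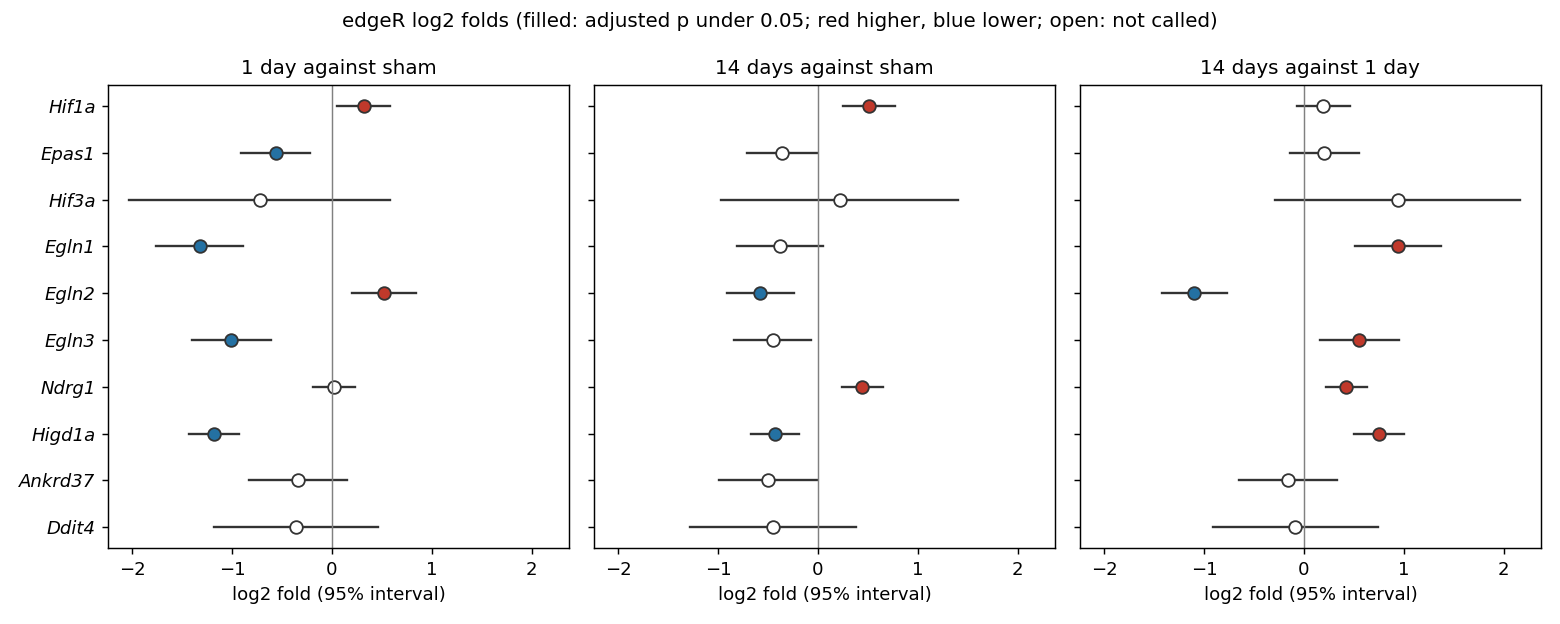
Log2 folds of the 10 genes from edgeR in the 3 comparisons (x axis), with 95% intervals as bars, filled points for an adjusted p under 0.05 and open points for the rest. At 1 day 6 of 10 genes were called, at 14 days 4, and between both times 5, and Hif3a had the widest intervals, from -2.03 to 0.58 at 1 day.

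Per kilobase of exon, the level in sham was highest for Egln1, at 42.55 CPM per kb ± 1.85 (SD, n = 3), followed by Epas1 at 26.56 ± 0.271. Egln3 (13.2 ± 0.297) and Hif1a (12.7 ± 1.10) came next and overlapped each other. Higd1a, Egln2 and Ddit4, at 4.61, 3.95 and 3.23 CPM per kb, each overlapped their neighbour, and Ndrg1 at 1.90, Ankrd37 at 1.21 and Hif3a at 0.0702 stood apart below them. At 1 day Epas1 (18.0 ± 3.36), Egln1 (17.0 ± 5.27) and Hif1a (15.8 ± 1.40) overlapped at the top, so the lead of Egln1 seen in sham was gone. At 14 days Egln1 was again first, at 32.7 ± 5.85 CPM per kb, above Epas1 (20.7 ± 3.95) and Hif1a (18.1 ± 2.22), which overlapped. Hif3a was last in all 3 groups. Length here is the union of a gene's annotated exons, which can exceed any 1 transcript. The union and the longest transcript had 6596 and 4049 bases for Ndrg1, 5896 and 4724 for Hif1a, and 2800 and 2107 for Egln2. They were equal for Egln1, Egln3 and Ddit4. The order above and the shares per length below depend on this choice of length.

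**Figure D2:**
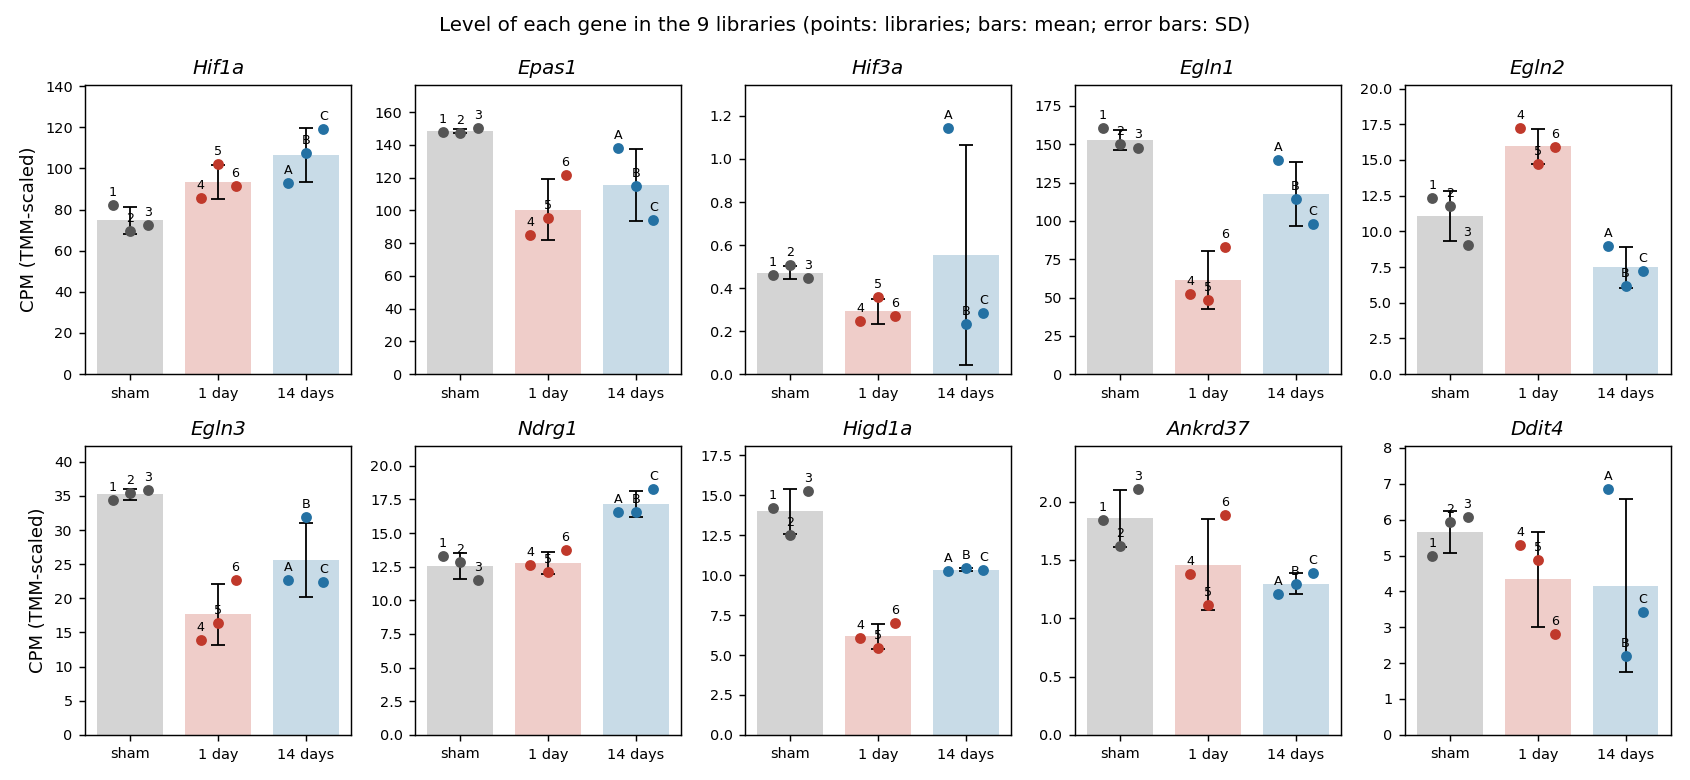
CPM (y axis, TMM-scaled, a separate scale per gene) of each gene in sham mice 1 to 3, mice 4 to 6 at 1 day and libraries A to C at 14 days; points are libraries, bars the mean and error bars the SD. Egln1 fell from 148 to 160.5 CPM in sham to 48.4 to 82.9 CPM at 1 day, and Higd1a lay between 10.3 and 10.5 CPM in all 3 libraries at 14 days.

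Hif1a, the broadly expressed alpha subunit that drives much of the acute response to low oxygen, had 82.1, 69.7 and 72.5 CPM in sham mice 1, 2 and 3. It had 85.8, 102.1 and 91.6 CPM in mice 4, 5 and 6 at 1 day and 93.0, 107.3 and 119.1 CPM in A, B and C at 14 days. All 6 I/R libraries lay above all 3 sham libraries, although mouse 4 was only just above sham 1. At 1 day the log2 fold was 0.32 (SE 0.12, edgeR adjusted p = 0.0434), close to the threshold. That call was lost in 5 of 10 other settings (adjusted p from 0.00151 to 0.0747, log2 fold from 0.28 to 0.79) and in 6 of 9 fits without 1 library (sham 2, sham 3, mouse 4, mouse 5, B or C; adjusted p from 0.0326 to 0.166). At 14 days the log2 fold was 0.51 (SE 0.12, edgeR adjusted p = 0.0186). It was called in 9 of 10 other settings and in 5 of 9 fits without 1 library, the call ending without sham 2, sham 3, B or C (log2 fold from 0.41 to 0.60, adjusted p up to 0.104). Between both times the difference was not called, at 0.19 with a 95% interval from -0.07 to 0.46. In bulk tissue a change in the number of cells of a type and a change in RNA per cell cannot be told apart, here or in the results that follow.

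Epas1 encodes HIF-2alpha, the alpha subunit known from endothelium, with roles in vessels and in iron and erythropoietin control. Its sham levels were tightly grouped at 148, 147 and 150.2 CPM. Mice 4, 5 and 6 had 84.9, 95.3 and 121.4 CPM, and A, B and C had 138, 115 and 93.95 CPM. All I/R libraries were below sham, A by the least. At 1 day it fell by 32.3% (log2 fold -0.56, SE 0.16, edgeR adjusted p = 0.0108), called in all 9 fits without 1 library and in 9 of 10 other settings. With total count alone the log2 fold was -0.10 (adjusted p = 0.609, beside 0.00179 to 0.609 over the 10 settings). At 14 days it was -0.36 and not called (edgeR adjusted p = 0.151, 95% interval -0.71 to -0.01), though the call appeared without A, at -0.51 (adjusted p = 0.0405), and without mouse 6, at -0.36. From 1 to 14 days the difference was 0.20 and not called (0.36 and called without mouse 6). The 10 endothelial markers summed to 581.5 to 619 CPM in sham, 451.5 to 468.3 CPM at 1 day and 499.4 to 626.4 CPM at 14 days. Of these 10 markers 4 were called lower and 1 higher at 1 day, beside 24.8% and 29.4% of all genes. Their part in the Epas1 result was not tested.

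Hif3a encodes the alpha subunit whose short splice forms can restrain the other two. It was near the limit of detection, with 11, 15 and 7 counts in sham, 11, 9 and 6 counts at 1 day and 33, 8 and 7 counts at 14 days. Only library A stood out, with 33 counts. The log2 fold was -0.72 at 1 day (95% interval -2.03 to 0.58) and 0.22 at 14 days (-0.97 to 1.40), neither called. Without A the 14-day value was -0.88. Differences smaller than these intervals span were not detectable at this depth.

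The balance between Hif1a and Epas1 within a library does not depend on how libraries are scaled. The ratio of Hif1a to Epas1 counts was 0.555, 0.473 and 0.483 in sham mice 1, 2 and 3, then 1.01, 1.07 and 0.755 in mice 4, 5 and 6 and 0.674, 0.934 and 1.27 in A, B and C. All 6 I/R libraries had a higher ratio than all sham libraries. The mean log2 ratio was higher by 0.90 at 1 day, 1.86 times, and by 0.88 at 14 days, 1.85 times. In each case the two-sided exact permutation p was 0.1, the smallest that 3 against 3 can give, and 0.2 after adjustment over the 6 ratio tests. Between both times it differed by -0.01 (exact permutation p = 1). Per length, Hif1a made up 32.2% ± 1.90 of the transcripts of the 3 alpha subunits in sham (SD, n = 3 here and in the other groups), 46.9% ± 4.63 at 1 day and 46.8% ± 7.85 at 14 days.

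**Figure D3:**
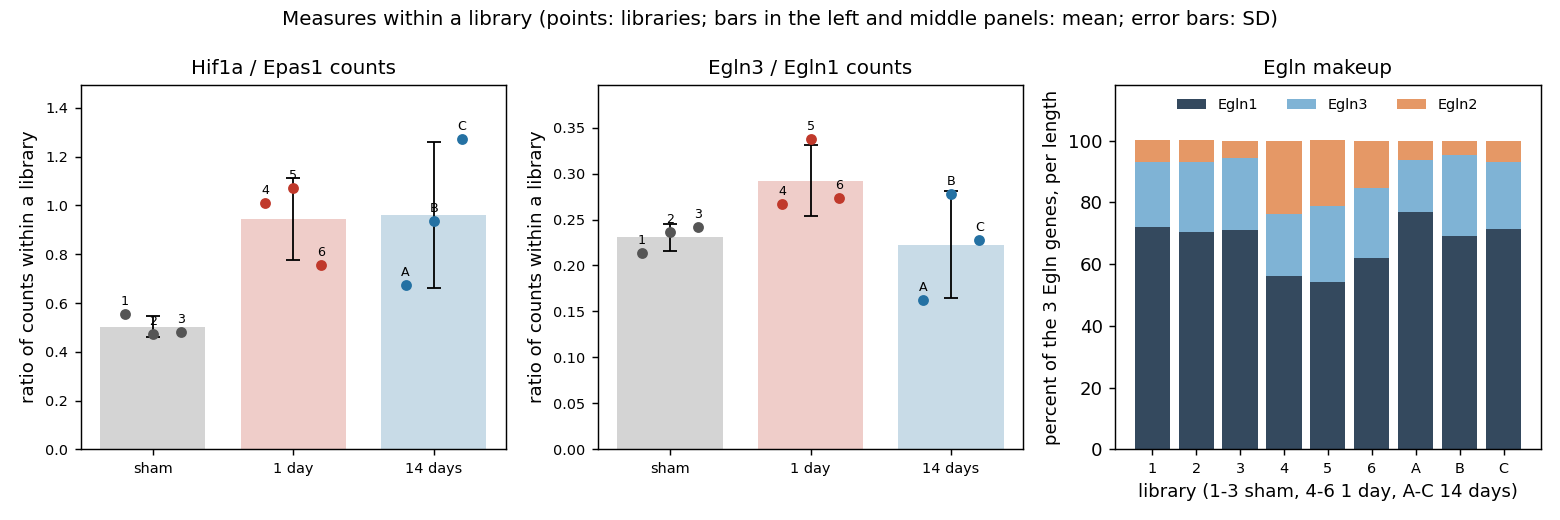
Left and middle, the ratio of Hif1a to Epas1 counts and of Egln3 to Egln1 counts in each library (points), with group means (bars) and SD; right, the percent of Egln1, Egln2 and Egln3 per exon length in each library. The Hif1a to Epas1 ratio was 0.473 to 0.555 in sham and 0.674 to 1.27 in the 6 I/R libraries, and Egln2 took 15.2 to 23.7% of the Egln transcripts at 1 day against 5.6 to 7.12% in sham.

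Egln1 encodes PHD2, the hydroxylase that does most of the work of marking HIF-1alpha at normal oxygen. Sham mice 1, 2 and 3 had 160.5, 150.4 and 148 CPM, mice 4, 5 and 6 had 52.2, 48.4 and 82.9 CPM, and A, B and C had 139.9, 115 and 98.1 CPM. At 1 day each library was far below each sham library, mouse 6 being the highest of the 3, and at 14 days the libraries lay in between. At 1 day Egln1 fell by 60.1% (log2 fold -1.32, SE 0.20, edgeR adjusted p = 0.000336), called in all 10 other settings and all 9 fits without 1 library, with a log2 fold between -1.61 and -0.87. At 14 days the log2 fold against sham was -0.38 and not called (edgeR adjusted p = 0.213, 95% interval -0.81 to 0.05), though it passed in a fit of those groups alone (adjusted p = 0.045, beside 0.045 to 0.408 over the 10 settings) and without mouse 6. From 1 to 14 days Egln1 rose by a log2 fold of 0.94 (SE 0.20, edgeR adjusted p = 0.00237), again in all 10 settings and 9 fits without 1 library.

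Egln2 encodes PHD1, a hydroxylase that is not known as a HIF target. The levels were 12.35, 11.8 and 9.07 CPM in sham, 17.2, 14.7 and 15.9 CPM at 1 day and 9.003, 6.185 and 7.24 CPM at 14 days. It was the hydroxylase that was higher than sham at 1 day and lower at 14 days, with no overlap in either comparison, although A at 9.003 CPM was just under sham 3 at 9.07 CPM. The log2 fold was 0.52 at 1 day (SE 0.15, edgeR adjusted p = 0.0109) and -0.58 at 14 days (SE 0.15, edgeR adjusted p = 0.0278). The first was called in all 10 other settings and lost without sham 3 or mouse 4 (log2 fold 0.40 and 0.43). The second was called in 9 of 10 other settings and lost without sham 1, sham 2, B or C (log2 fold from -0.57 to -0.45) and with total count alone (-0.50). From 1 to 14 days Egln2 fell by a log2 fold of -1.10 (SE 0.15, edgeR adjusted p = 0.00018), in every setting and fit without 1 library that was run.

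Egln3 encodes PHD3, the hydroxylase known for strong induction by HIF and for a part in cell death and muscle growth. Sham libraries had 34.3, 35.5 and 35.85 CPM, those of mice 4, 5 and 6 had 13.9, 16.3 and 22.6 CPM, and A, B and C had 22.7, 31.9 and 22.3 CPM. All 6 I/R libraries were below all sham libraries. At 1 day it fell by 50.2% (log2 fold -1.01, SE 0.18, edgeR adjusted p = 0.000983), called in all 10 other settings and 9 fits without 1 library. At 14 days the log2 fold was -0.45 and not called (edgeR adjusted p = 0.111, 95% interval -0.84 to -0.07), and it passed in a fit of those groups alone (-0.46) and without mouse 6 (-0.45). Egln3 was higher at 14 days than at 1 day by 0.55 (SE 0.18, edgeR adjusted p = 0.0241) even though C overlapped mouse 6. That call was lost without mouse 4 (0.41), mouse 5 (0.50) or B (0.37), with total count alone (0.19) and in a fit of both I/R groups alone (0.57).

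The hydroxylases thus did not move as 1 group at 1 day: Egln1 and Egln3 fell and Egln2 rose. Per length, Egln2 made up 6.6% ± 0.865 of the Egln transcripts in sham (SD, n = 3 per group), 20.1% ± 4.35 at 1 day and 5.97% ± 1.03 later on, at 14 days. The share of Egln1 was 71.2%, 57.4% and 72.4%, and that of Egln3 22.2%, 22.6% and 21.6%. The ratio of Egln3 to Egln1 counts was 0.214, 0.236 and 0.242 in sham, 0.267, 0.337 and 0.273 at 1 day and 0.162, 0.278 and 0.228 at 14 days. Every 1-day library had a higher ratio than every sham library, 1.26 times on the geometric mean (log2 difference 0.34, exact permutation p = 0.1, the smallest possible, adjusted 0.2). At 14 days the ratio overlapped sham (log2 difference -0.08, exact permutation p = 0.8, adjusted 0.96) and the 1-day group (-0.42, exact permutation p = 0.3, adjusted 0.45).

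At 1 day the summed markers of heart muscle, of smooth muscle and pericytes, and of endothelium lay below sham. Epas1, Egln1, Egln3 and Higd1a were lower too, while Hif1a and Egln2 were higher and Ndrg1 overlapped sham. The 10 cardiomyocyte markers, among them Myh6, Tnnt2 and Ryr2, summed to 65120 to 72080 CPM in sham, and to 36790, 34640 and 52530 CPM in mice 4, 5 and 6. At 1 day 8 of the 10 were called lower, beside 24.8% of all genes. Mouse 6, with the highest cardiomyocyte sum of its group, also had the highest Epas1, Egln1, Egln3 and Higd1a of the 3. At 14 days the sum was 65540, 55990 and 50510 CPM in A, B and C, and edgeR called none of the 10 (2 lower at an unadjusted p under 0.05), limma-voom none and DESeq2 2 lower. Epas1 and Egln1 were highest in A too. Egln3 was highest in B (31.9 CPM, beside 22.7 CPM in A), and Higd1a was 10.28, 10.46 and 10.3 CPM in A, B and C. Neutrophil markers summed to 52.33 to 146 CPM at 1 day, above 2.512 to 6.773 CPM in sham and 3.359 to 4.62 CPM at 14 days, with Ly6g at 0 in all libraries. Macrophage and monocyte markers were at 129.8 to 143.2 CPM in sham. They were at 251.5, 266.6 and 243.7 CPM in mice 4, 5 and 6 and at 197.8, 316.8 and 374.2 CPM in A, B and C. Fibroblast markers were at 865.2 to 1156 CPM in sham, 857.2 to 974.8 CPM at 1 day and 1785, 2542 and 3830 CPM in A, B and C. Of the 10, 3 were called higher and 4 lower at 1 day, with a median log2 fold of 0.23. At 14 days 8 were called higher, beside 8.75% of all genes. The 10 smooth muscle and pericyte markers summed to 846.9 to 880.5 CPM in sham, to 451, 461.7 and 605.1 CPM in mice 4, 5 and 6 and to 764.7 to 948.7 CPM at 14 days. Their sum was thus also lower in all 3 libraries at 1 day, with mouse 6 highest of the 3. By edgeR 4 of the 10 were called lower and 4 higher at 1 day, beside 24.8% and 29.4% of all genes. The part of these cell types in the results on the 10 genes was not tested.

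**Figure D4:**
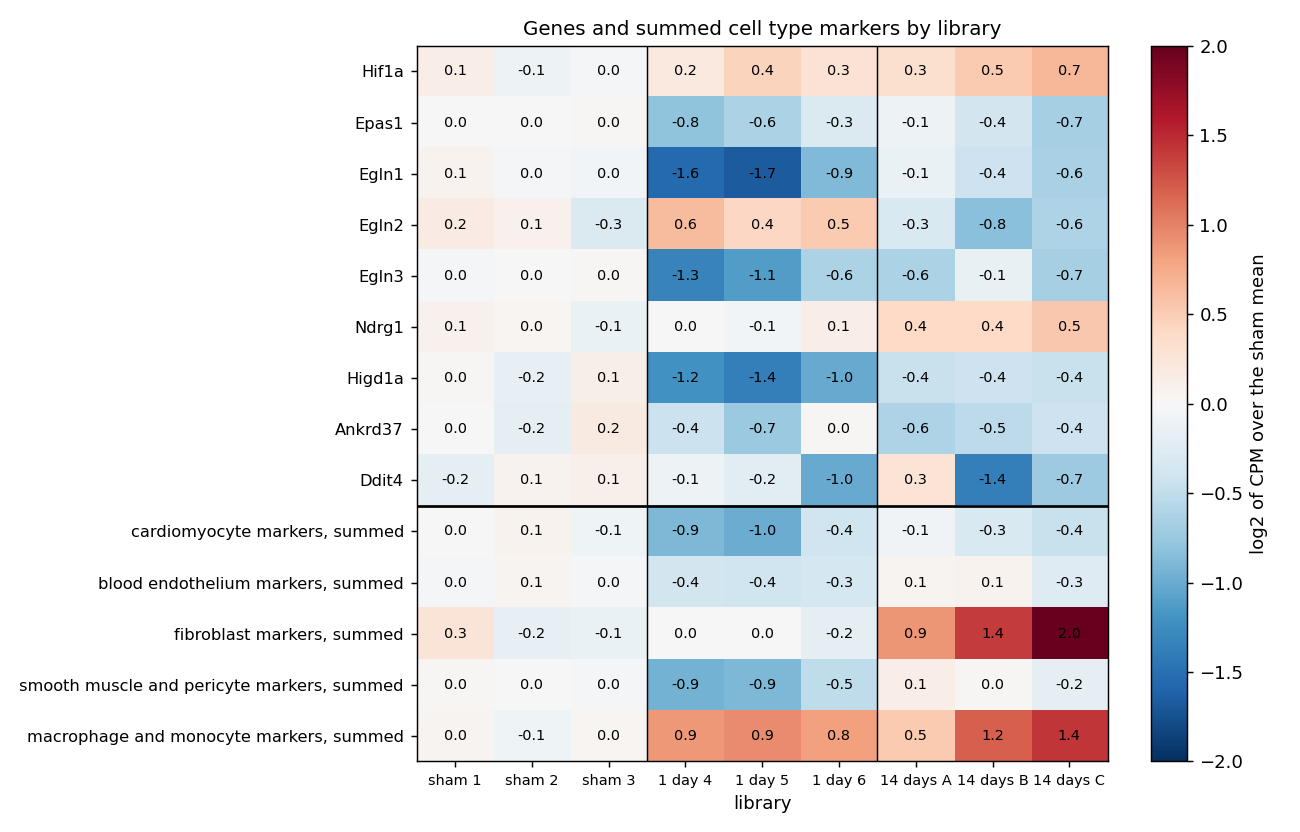
Log2 of CPM over the sham mean for 9 of the 10 genes (Hif3a, at 6 to 33 counts, is left out) and for 5 summed marker lists in each library, red above and blue below sham. Egln1, Epas1, Egln3 and Higd1a were lowest in mice 4 and 5 among the 1-day libraries, as were the cardiomyocyte sum (36790 and 34640 CPM) and the smooth muscle and pericyte sum (451 and 461.7 CPM). C had the highest fibroblast sum (3830 CPM), the highest macrophage and monocyte sum (374.2 CPM) and the highest Hif1a. At 1 day Hif1a lay above sham, as did the macrophage and monocyte sum (243.7 to 266.6 beside 129.8 to 143.2 CPM). The fibroblast sum was 857.2 to 974.8 CPM at 1 day beside 865.2 to 1156 CPM in sham. The part of these cell types in the results on the genes was not tested.

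Among the target genes, Higd1a encodes a small protein of the inner mitochondrial membrane that is induced in hypoxia and aids respiratory complexes. It had 14.2, 12.5 and 15.3 CPM in sham, 6.065, 5.44 and 6.99 CPM at 1 day and 10.3, 10.5 and 10.3 CPM at 14 days. The 3 groups were fully separate, with 1 day lowest. At 1 day Higd1a fell by 55.9% (log2 fold -1.18, SE 0.12, edgeR adjusted p = 3.24e-05), called in all 10 other settings and all 9 fits without 1 library. By 14 days it fell by 25.8% from sham (log2 fold -0.43, SE 0.11, edgeR adjusted p = 0.0266). That call was lost with total count (-0.33), with the nuclear total (-0.34) and without sham 1, sham 2, sham 3, B or C (log2 fold from -0.51 to -0.37). From 1 to 14 days it rose by 0.75 (SE 0.12, edgeR adjusted p = 0.000376), a call lost with total count alone (0.37).

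Ndrg1, a stress-response gene that is a standard readout of HIF activity in cultured cells, had 13.3, 12.8 and 11.5 CPM in sham and 12.6, 12.1 and 13.7 CPM at 1 day, which overlapped. In A, B and C it had 16.6, 16.6 and 18.3 CPM, above every other library. The 1-day log2 fold was 0.02 with a 95% interval from -0.19 to 0.23, and only total count scaling called it (0.50, adjusted p = 0.0357, beside 0.0357 to 0.997 over the 10 settings), about the shift of the median gene. At 14 days it was higher by a log2 fold of 0.44 (SE 0.10, edgeR adjusted p = 0.0124). This was lost without sham 2, sham 3 or C (log2 fold 0.46, 0.39 and 0.38) and with total count alone (0.54). The rise from 1 to 14 days was 0.42 (SE 0.09, edgeR adjusted p = 0.00331), and with total count alone it was 0.04.

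Ankrd37, an ankyrin-repeat gene known for induction by HIF-1, was low: 1.84, 1.62 and 2.11 CPM in sham, 1.38, 1.11 and 1.88 CPM at 1 day and 1.21, 1.29 and 1.39 CPM at 14 days. The 1-day libraries overlapped sham and the 14-day libraries lay below it. The log2 fold was -0.34 at 1 day (95% interval -0.83 to 0.15, and 0.14 with total count alone) and -0.50 at 14 days (-0.99 to -0.01), neither called by edgeR. Ddit4 (REDD1), which restrains mTORC1 under low oxygen and other stress, had 4.98, 5.93 and 6.07 CPM in sham, 5.295, 4.885 and 2.82 CPM at 1 day and 6.86, 2.20 and 3.43 CPM at 14 days. It overlapped sham at both times, with log2 folds of -0.36 (95% interval -1.18 to 0.46, and 0.15 with total count alone) and -0.45 (-1.28 to 0.38). Library A was the high one at 14 days: without it the log2 fold was -1.03 and called (adjusted p = 0.0207, beside 0.0207 to 0.851 over the fits without 1 library).

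**Figure D5:**
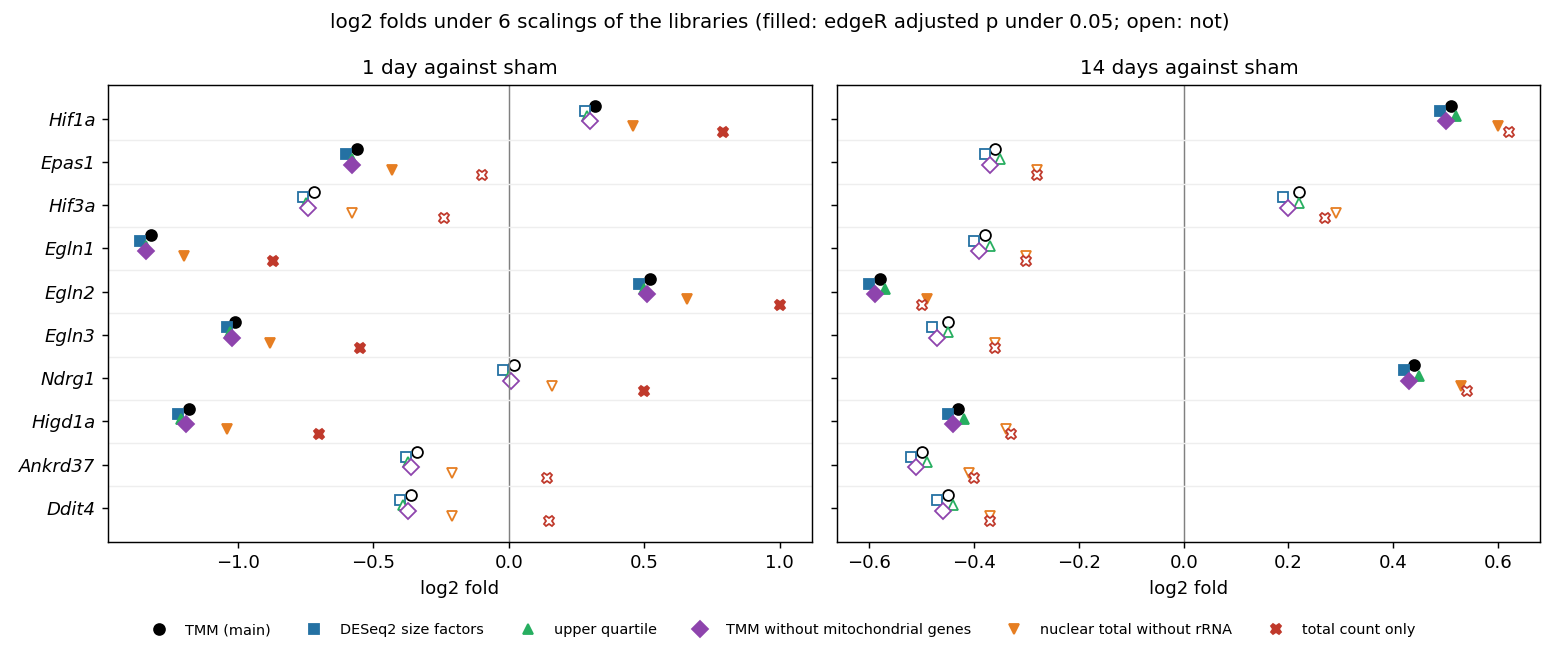
Log2 folds (x axis) of the 10 genes against sham at 1 day (left) and 14 days (right) under 6 ways of scaling the libraries, filled where the edgeR adjusted p was under 0.05. Total count alone moved the 1-day values up together, Epas1 to -0.10, Egln1 to -0.87 and Ndrg1 to 0.50, and turned Ankrd37 and Ddit4 to 0.14 and 0.15; at 14 days it left no filled point.

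Proteins that work with or act on the alpha subunits include the beta subunit Arnt, the ligase subunit Vhl and the coactivators Ep300 and Crebbp. Of 13 tested partners, ubiquitin ligase subunits and regulators (Arnt2 was not tested), edgeR called none higher and 3 lower at 1 day, with a median log2 fold of -0.07 beside 0.04 for all genes, of which 54.2% were called. None was higher at an unadjusted p under 0.05 or with DESeq2 or limma-voom either. With total count alone 6 were called higher and none lower, with a median of 0.40. Under that scaling 6859 of all 14124 genes were called higher and 1058 lower, and the median gene moved by 0.48. Hif1an (FIH), the asparagine hydroxylase that blocks HIF transactivation, fell by 24.3% at 1 day, from 44.8 to 33.9 CPM (log2 fold -0.40, SE 0.10, edgeR adjusted p = 0.00704). P4htm, a transmembrane prolyl hydroxylase, was at 2.07 CPM beside 3.32 CPM in sham (log2 fold -0.69, edgeR adjusted p = 0.00687). Siah1a, a ubiquitin ligase that targets EGLN proteins, had a log2 fold of -0.46, and 76.5% of its longest transcript matched other genes at 95% identity or more. With total count alone the log2 folds were 0.07 for Hif1an, -0.21 for P4htm and 0.01 for Siah1a. At 14 days edgeR called 1 of the 13, beside 14.4% of all genes, namely Siah2, the related ubiquitin ligase, which fell by 38.2% (log2 fold -0.69, SE 0.16, edgeR adjusted p = 0.0184). None was called higher then (1 at an unadjusted p, none by DESeq2 or limma-voom).

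Targets in glycolysis and lactate transport were mixed at 1 day: 7 of 16 rose and 3 fell, with a median log2 fold of 0.43. Over all genes 54.2% were called, close to these 10 of 16. Of all genes 29.4% were called higher and 24.8% lower, with a median of 0.04. Scaled by total count alone, 12 of the targets rose and none fell, beside 6859 higher and 1058 lower of all 14124 genes. The platelet isoform of phosphofructokinase, Pfkp, rose from 23.7 to 69.7 CPM (log2 fold 1.55, SE 0.17, edgeR adjusted p = 6.34e-05). Hexokinase 1, Hk1, rose from 58.1 to 98.6 CPM (log2 fold 0.76, SE 0.13, edgeR adjusted p = 0.000513). Aldoa, the muscle aldolase, fell from 633.7 to 437.5 CPM (log2 fold -0.53, SE 0.16, edgeR adjusted p = 0.0164). At 14 days 1 rose and 1 fell, beside 14.4% of all genes called. Pfkfb3, the kinase that makes the activator of phosphofructokinase, was at 6.60 beside 3.89 CPM (log2 fold 0.77, edgeR adjusted p = 0.0138), and the liver phosphofructokinase Pfkl at 28.1 beside 39.5 CPM (log2 fold -0.50, edgeR adjusted p = 0.0354). From 1 to 14 days 2 rose and 10 fell, with a median of -0.59. Over all genes 51.9% were called, 25.1% higher and 26.8% lower, with a median of 0. The list holds Gapdh, Pgk1 and Pgam1, which were low in sham, at 4.69, 3.33 and 1.54 CPM. In Gapdh, 36.1% of the longest transcript matched other genes (144 of them) at 95% identity or more. How reads matching several genes were counted is not known. Pgk1 is among those that rose at 1 day, and Gapdh, Pgk1 and Pgam1 are among those that fell from 1 to 14 days.

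Of 23 other tested HIF targets (Car9, Car12 and Epo were not tested), 7 rose and 9 fell at 1 day, with a median log2 fold of -0.18. Of all genes 29.4% were called higher and 24.8% lower, with a median of 0.04. Total count scaling gave 9 of the 23 higher and 1 lower, beside 6859 higher and 1058 lower of all 14124 genes. Vegfa, the vessel growth factor, fell from 118.6, 110.3 and 110.9 CPM to 33.9, 35.1 and 66.2 CPM (log2 fold -1.33, SE 0.22, edgeR adjusted p = 0.000711). All 3 libraries at 1 day were below all sham libraries, mouse 6 by the least. Tfrc, the transferrin receptor, fell by 29.4% (log2 fold -0.50, edgeR adjusted p = 0.0284, and -0.01 with total count alone). Both genes named here for 1 day fell, while the 7 that rose are not described at that time. At 14 days 4 rose and 1 fell, beside 8.75% of all genes called higher and 5.64% lower. Higher were the chemokine receptor Cxcr4 (log2 fold 0.96, edgeR adjusted p = 0.00341), the collagen cross-linking enzyme Plod2 (0.58, adjusted p = 0.0284) and the mitophagy receptor Bnip3l (0.52, adjusted p = 0.0369). In Bnip3l, 34.7% of the longest transcript matched a pseudogene. Gys1, muscle glycogen synthase, was lower (log2 fold -0.52, edgeR adjusted p = 0.0265).

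Other enzymes that need oxygen as the EGLN enzymes do, the JmjC histone demethylases, the TET enzymes and Ado, had 2 of 11 called higher and 3 lower at 1 day, beside 29.4% and 24.8% of all genes, with a median log2 fold of -0.12 (0.36 with total count alone, 3 higher and 1 lower). With total count alone 6859 of all 14124 genes were called higher and 1058 lower. Tet1, which oxidises methylated cytosine, fell from 15.6 to 5.87 CPM (log2 fold -1.41, SE 0.18, edgeR adjusted p = 0.000162), while Tet3 rose by 0.38 (adjusted p = 0.00448). The histone demethylase Kdm5c rose by 0.56 (adjusted p = 0.000421), Kdm6a fell (log2 fold -0.54, adjusted p = 0.000435) and Kdm5a fell (-0.24, adjusted p = 0.038, and 0.23 with total count alone). At 14 days, when 5.64% of all genes were called lower and 8.75% higher, edgeR called 3 of the 11 lower and none higher (none at an unadjusted p or by DESeq2 or limma-voom): Kdm6b (log2 fold -0.89, SE 0.13, adjusted p = 0.00324), Tet3 (-0.40, adjusted p = 0.0163) and Kdm4b (-0.38, adjusted p = 0.0223). Tet3 thus lay above sham at 1 day and below it at 14 days, like Egln2.

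Relatives of the target genes and regulators of mTORC1 had 1 of 12 called higher and 8 lower at 1 day, beside 29.4% and 24.8% of all genes, with a median log2 fold of -0.47 (2 higher, 4 lower and a median of 0.01 with total count alone). Over all 14124 genes total count alone gave 6859 higher and 1058 lower. Ndrg2 and Ndrg4, relatives of Ndrg1, both fell (log2 fold -0.73, edgeR adjusted p = 0.00585, and -1.04, adjusted p = 0.000354). Ndrg1 itself had a log2 fold of 0.02. Sesn2, a stress-induced inhibitor of mTORC1, rose from 1.72 to 3.37 CPM (log2 fold 0.98, SE 0.21, edgeR adjusted p = 0.00222). At 14 days none of the 12 was called by edgeR (1 at an unadjusted p under 0.05), beside 14.4% of all genes, 1 by DESeq2 and none by limma-voom. Higd1c was not tested. Of the 16 list genes named at 1 day, 4 (Aldoa, Kdm5a, Siah1a and Tfrc) lost their call in at least 1 fit without 1 library, and 8 with total count alone. Of the 10 named at 14 days, all but Cxcr4 and Kdm6b lost it in at least 1 such fit, 8 in all.

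Over the 9 libraries, the genes whose log2 CPM was most like that of Hif1a were Stag1, a cohesin subunit, with Pearson's r of 0.982, Tbc1d23 (0.977) and Arl6ip1 (0.976). For Epas1 they were Epb41 (0.993), Arfgef1 (0.992) and Polr2m (0.982), and for Egln3 Ago4 (0.976), Plbd1 (0.968) and Minos1 (0.968), each ranked among 5527 genes. Hif3a, at few counts, had lower values with its nearest genes Prpf18 (0.845), Sgms1 (0.841) and Tmem182 (0.84). These are descriptions over libraries that share groups and scaling. Stag1, for example, averaged 29.6, 35.0 and 37.9 CPM in sham, at 1 day and at 14 days, and Epb41 62.4, 45.0 and 50.6 CPM.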

How the data were processed

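RNA of the left ventricle was sequenced in 9 mice, 3 per group, as stranded total RNA libraries after TRIzol extraction and depletion of ribosomal RNA, per the labels' protocols. The deposited values are whole-number counts of reads per gene, not normalized. STAR 2.7.1a and the build GRCm38 (mm10) were used per the submitters' processing notes (counter, annotation release, strand setting, multi-mapping: not given in the sources used here). Gene overlaps and near-identical copies (BLAST 2.17.0) are therefore given beside the genes they touch. The table held 38293 genes, of which 36345 were matched by Ensembl ID to GENCODE release M21, and no column of other samples.

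The tests came from the quasi-likelihood method of edgeR 4.0.16 (R 4.3.3) with TMM scaling, robust dispersion and all 9 libraries in 1 fit, on the 14124 genes that its filterByExpr kept. Adjusted p is the Benjamini-Hochberg value over those genes, with a threshold of 0.05, and intervals are at 95%. Total counts ran from 20215781 to 36816818 per library. Ribosomal RNA genes, including the mitochondrial ones, took 47.1 to 64.3% of them. Replicates of a group differed by more than sampling noise (chi-square of 7.28 to 97.5 per degree of freedom), and none was pooled. Likeness between genes is Pearson's r of log2 CPM (prior count 2).

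The genes and lists were chosen with earlier results of these data known. From each of 5 pathway lists the text names, per comparison with sham, the called genes where these were 5 or fewer, and otherwise the 2 most abundant by CPM of the commoner direction plus the most abundant 1 of the opposite direction. A gene that this rule took is not reported here. Likeness took, for 4 genes, the 3 others with the highest r among genes of at least 10 CPM whose symbol is not that of a clone or predicted gene. Alternatives were DESeq2 1.42.0, limma-voom (limma 3.58.1), DESeq2 size factors, upper-quartile and total count scaling, scaling without mitochondrially encoded genes, no filter, 1 CPM in 3 libraries as the filter, the compared groups fitted alone, and each mouse left out in turn. Scaling to the nuclear total without ribosomal RNA was chosen after seeing the data. The code of the fit was checked on simulated counts in which few genes changed. That check does not bear on the choice of scaling for these data, in which many genes were called. Figures were drawn with matplotlib 3.10.9.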

Additional observations from a re-analysis of the deposited data

Results flagged for a closer look

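The effects at both times differed for 5 of the 10 genes, tested as 14 days against 1 day in the same edgeR fit, in which sham drops out. Of all genes tested 51.9% were called in this comparison, so the number was close to that of genes in general. The difference in log2 fold (14 days minus 1 day) was 0.94 for Egln1, -1.10 for Egln2, 0.55 for Egln3, 0.42 for Ndrg1 and 0.75 for Higd1a. The Egln3 call was lost in 5 of 19 alternatives, and its libraries overlapped between the times. For Egln2 the change from sham was upward at 1 day and downward at 14 days.

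Of the 25 other named genes 20 differed between the times by the same test, but they were named for a call against sham at 1 day or 14 days in the same libraries, which favours a difference between the times, so this count is a description only. Among regulators the difference was 0.54 for Siah1a, 0.49 for P4htm and -0.56 for Siah2. In glycolysis it was -0.85 for Hk1, -1.09 for Pfkp and -0.41 for Pfkfb3. Among the other HIF targets it was 0.64 for Vegfa, 0.55 for Plod2, 1.00 for Bnip3l and 0.56 for Cxcr4. Oxygen-dependent enzymes gave 0.38 for Kdm5a, -0.74 for Kdm5c, -0.78 for Tet3, 0.56 for Kdm6a, 1.19 for Tet1, -0.33 for Kdm4b and -0.88 for Kdm6b. The rest were 0.55 for Ndrg2, 1.03 for Ndrg4 and -0.96 for Sesn2. Over all genes tested, not chosen for a call, 51.9% were called in this comparison.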

How the results depend on the processing

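No paired analysis was possible because the groups share no replicate numbers. Of 19 alternatives, 9 left out 1 library. Counts of called genes stayed within 1.5 times except as follows. With total count alone, 14 days against sham gave 832 genes and 0 of the 10 (3 at an unadjusted p under 0.05, while DESeq2 and limma-voom called 4), and 14 days against 1 day gave 2 of the 10. Leaving out 1 library gave 478 to 3221 genes and 0 to 7 of the 10 at 14 days against sham, 6145 to 8511 and 4 to 6 at 1 day against sham, and 5604 to 8360 and 4 to 6 between both times. Some directions turned, all in values not called in the main analysis except Hif1an, Siah1a and Kdm5a. At 1 day against sham with total count alone, the log2 fold was 0.14 for Ankrd37, 0.15 for Ddit4, 0.07 for Hif1an, 0.01 for Siah1a and 0.23 for Kdm5a. Ndrg1 at 1 day was -0.02 with DESeq2 and with its size factors, -0.01 in a fit of those groups alone and -0.04 to 0.06 without 1 library (-0.04 without sham 3, -0.03 without mouse 6 and -0.01 without C). Hif3a at 14 days was -0.17 with limma-voom, and -0.88 (without A) to 0.62 over the fits without 1 library. Between both times Hif1a and Epas1 were each -0.17 with total count alone, Hif3a -0.15 without A (up to 1.34 without B), Ankrd37 0.04 without mouse 6 (down to -0.31), and Ddit4 -0.66 without A, 0.11 without mouse 4, 0.24 without B and 0.05 without C. Leaving out 1 library moved the log2 ratio of Hif1a to Epas1 between both times from -0.24 to 0.22 (0.05 without mouse 4, 0.09 without mouse 5, 0.22 without A) and that of Egln3 to Egln1 at 14 days against sham from -0.26 to 0.13. The median gene moved too with total count alone, by 0.48 at 1 day against sham and by -0.39 between both times. The cause of these turns was not tested. Low counts limit Hif3a, and 3 mice per group limit every ratio test to an exact permutation p of at least 0.1. Without a filter on low counts 24016 genes were tested.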
